A study of Mus musculus with 4 samples.

Results

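The genes described here encode the core histones H2A, H2B, H3 and H4 and the linker histone H1, with their testis variants. They were chosen by symbol: every gene named Hist1h to Hist4h, the H2A variants H2afj, H2afv, H2afx, H2afy, H2afy2 and H2afz, the H3 genes H3f3a and H3f3b, and the linker histone H1f0. Of 21038 genes listed, 62 matched. Without the 3 testis variants Hist1h1t, Hist1h2ba and Hist1h2aa, 50 genes of the Hist1 to Hist4 families are called clustered here. The 9 genes with other symbols are called outside the clusters. By histone type the 62 comprised 6 H1, 20 H2A, 13 H2B, 12 H3 and 11 H4 genes. The tables gave no value in any library for 7 clustered genes (Hist1h2ah, Hist1h2ai, Hist1h3h, Hist1h4f, Hist1h4m, Hist2h2bb and Hist2h4). That left 55 of the 19445 genes with a value.

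The study measured poly(A)-selected RNA of pachytene spermatocytes, the meiotic cells in which homologous chromosomes are fully synapsed. The cells came from testes of adult C57BL/6 mice, and Tcfl5, the gene of a germ-cell bHLH transcription factor, was the only locus at which the groups differed by label. There were 2 wild-type libraries (Tcfl5+/+) and 2 heterozygote libraries (Tcfl5+/-). The labels name no construct behind the Tcfl5 allele and do not say that the 2 libraries of a genotype came from separate animals, so a p-value here reflects the spread between libraries, which may be technical.

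Most core histone genes lie in clusters and are transcribed in S phase, when new chromatin needs histones in bulk. Their mRNAs are the known exception among metazoan mRNAs: they end at a short stem-loop bound by SLBP and carry no poly(A) tail. Genes outside the clusters, such as those of H2A.Z, H3.3 and macroH2A, give ordinary polyadenylated mRNAs and are expressed in all cell cycle phases. In the testis, spermatogenic cells add the variants H1t, TH2B and TH2A, which partly replace the somatic histones before protamines take over. Libraries made with oligo(dT) beads, as here, therefore sample the polyadenylated forms of these mRNAs, and a level given below is not the total level of a histone mRNA.

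Tcfl5 itself was at 248.7 and 237.7 FPKM (fragments scaled to transcript length and to the mapped fragments of the library) in the wild-type libraries and at 137 and 188.5 FPKM in the heterozygote libraries. The heterozygote values were both below the wild-type values, with a log2 difference of -0.59 and an adjusted p of 0.242 by limma-trend. Between 17954 and 18360 genes per library were above 0, and library pairs correlated at 0.973 to 0.986 across genes, on the log2(FPKM + 1) scale. Read totals per library are not given in the sources used here, so depth is known only from the files: for genes of 400 to 500 bases, the commonest low value lay between 0.12 and 0.15 FPKM. All 10 pachytene markers were present, summing to between 5498 and 6034 FPKM. Of the 10, 0 were higher and 4 were lower in both heterozygote libraries (Hspa2, Adam3, Ccna1 and Sycp1), where 23.6% and 19% of all tested genes were. Of 10 spermatogonial markers, 4 (Zbtb16, Sall4, Lin28a and Nanos3) stayed below 1 FPKM, as did all 4 macrophage markers. Peritubular markers summed to between 4.04 and 9.03 FPKM. Markers of other cells were present unevenly. The 10 spermatid markers summed to 1648 and 793.5 FPKM in wild type and to 2489 and 2105 FPKM in the heterozygote. Of these 10, 5 were higher in both heterozygote libraries and 0 lower, beside the same 23.6% and 19% of all tested genes. The 10 spermatogonial markers summed to 39.8 and 21.8 FPKM in wild type and to 37.8 and 21.6 FPKM in the heterozygote. The 10 Sertoli markers summed to 730, 470.5, 724.8 and 254.4 FPKM, in the order wild type 1 and 2, heterozygote 1 and 2, and the 6 Leydig markers to 529.2, 332.3, 575.1 and 309.4 FPKM, so all 3 sums were high in the libraries numbered 1 and low in those numbered 2. Their part in the results below was not tested. In bulk RNA, fewer cells of a type and less RNA per cell cannot be told apart.

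The annotated 3′ ends divided these genes. In GENCODE M21 transcripts, which matched all 62 genes, the histone stem-loop was searched on the transcript strand as GG, 2 bases, CTT, any base, T, any base, AG, 2 bases and CC, with both 2-base runs required to pair. It was found in 33 of the 50 clustered genes, in the testis variant Hist1h1t, and in 1 of the 9 genes outside the clusters, H2afx. Of 18477 other genes, 7 held it (0.0379%). Transcripts annotated as coding sequence alone cannot show it: 7 of the 17 clustered genes without a match were of this kind, as were Hist1h2ba and Hist1h2aa. A poly(A) signal, AATAAA or ATTAAA in the last 50 bases, was found in 14 of the 50 clustered genes and in 8 of the 9 outside them, against 83.2% of other genes.

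The stem-loops below are the commonest form, 2 H4 forms held by 1 gene each, and the forms of H1t and H2afx, from GENCODE transcripts on GRCm38, 5′ to 3′. Capitals mark the motif.
Hist2h2aa1: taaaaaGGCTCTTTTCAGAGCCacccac
Hist1h1t: cccaaaGGCTCTTTTAAGAGCCacttac
Hist1h4a: accaaaGGCCCTTCTCAGGGCCgcccac
Hist1h4b: acaaaaGGTCCTTTTCAGGACCactcac
H2afx: cacaaaGGCCCTTTTAAGGGCCaccacc

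The form of Hist2h2aa1 was shared by 18 of the 35 genes with a stem-loop, counted over the 16 motif bases. Counted from 1 at the 5′ end of the motif, Hist1h1t differed from it by C10A in the loop, a form held by 4 genes. Hist1h4a differed by T4C, T8C and A13G. Hist1h4b differed by C3T, T4C, A13G and G14A, and H2afx by T4C, C10A and A13G. H2afx also held a poly(A) signal, and its annotated transcript ran at least 822 bases past the stem-loop. H2afx is known to give both a stem-loop and a polyadenylated mRNA.

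Levels differed between these groups, but not in 1 order of transcript ends. FPKM is scaled to transcript length, so levels may be compared between genes. The 9 genes outside the clusters had a median mean level of 54.8 FPKM. Clustered genes with a value had a median of 1.198 FPKM where a poly(A) signal was annotated (13 genes) and of 0.144 FPKM where none was (30 genes). The split by stem-loop went the other way: clustered genes with one had a median of 0.695 FPKM (30 genes) and those without 0.095 FPKM (13 genes). The testis variants had a median of 2.29 FPKM. These medians are descriptions, since genes of a cluster share sequence and reads. Clustered transcripts annotated as coding sequence alone showed neither feature, so both splits depend in part on how complete the annotation is. Single genes also went against the poly(A) signal: Hist2h2aa1 had a stem-loop, no annotated signal and a mean of 188.8 FPKM, and H2afy, also without an annotated signal, had a mean of 79.7 FPKM. All 50-base windows of Hist2h2aa1 occur in transcripts of other genes, so its level may include their reads.

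**Figure D1:**
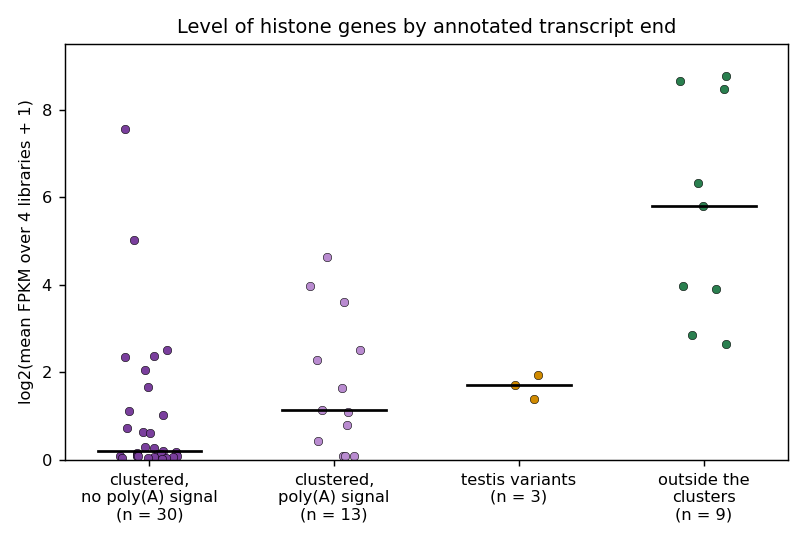
Mean level of each histone gene over the 4 libraries, on the scale log2(mean FPKM + 1), by group of annotated transcript end; bars mark medians and n is the number of genes with a value. The genes outside the clusters (median 54.8 FPKM) lie above most clustered genes, and 2 clustered genes without a poly(A) signal, Hist2h2aa1 and Hist2h2aa2, lie far above their group's median of 0.144 FPKM.

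In sum, histone RNA came to 1808, 1642, 1690 and 1600 FPKM in the order given above, or 0.382%, 0.351%, 0.343% and 0.331% of each library's FPKM. Genes outside the clusters gave 81.7%, 81.2%, 78.4% and 84.2% of it. The clustered genes gave 17.9%, 18.4%, 21.2% and 15.6%, and the testis variants 0.426%, 0.456%, 0.426% and 0.286%. Most histone RNA in these libraries thus came from replication-independent genes. Just 3 genes, H2afz, H3f3a and H3f3b, made up 67.7% to 72.4% of the sum in every library. By type, H2A genes summed to 862.7, 845.7, 910.8 and 788.6 FPKM and H3 genes to 869.1, 728.0, 704.2 and 751.2 FPKM. H2B, H1 and H4 were far lower, at 44.8 to 54.3 FPKM, 6.81 to 10.0 FPKM and 8.09 to 13.9 FPKM. H4 has no member outside the clusters by the rule used here.

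H2afz encodes H2A.Z, the variant of promoter nucleosomes, and was the most abundant member by mean. It was at 443.6 and 452.8 FPKM in wild type and at 443.1 and 406.4 FPKM in the heterozygote. The lower wild-type library and the higher heterozygote library were almost equal, and the log2 difference of -0.079 had an adjusted p of 0.774 by limma-trend. Of its 50-base windows, 69.6% also occur in transcripts of other genes, so part of its level rests on how shared reads were apportioned. H2afv encodes the second H2A.Z protein and was at 16.6, 14.02, 14.3 and 13.9 FPKM in the order above. Its genotypes overlapped, and H2afz exceeded it by 26.7 to 32.3 times in every library.

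The H3.3 genes H3f3a and H3f3b encode the same protein, the H3 that is deposited outside S phase. H3f3a was at 460.1 and 413.9 FPKM in wild type (mean 437 ± 32.6, SD, n = 2) and at 380.9 and 362.6 FPKM in the heterozygote (372 ± 12.9, SD, n = 2). Both heterozygote libraries were below both wild-type libraries, by 1.18 times in the means. The log2 difference was -0.23 (SE 0.082), with an adjusted p of 0.332 by limma-trend, so it did not pass. H3f3b was at 404.9 and 310.4 FPKM in wild type and at 319.1 and 385.0 FPKM in the heterozygote. Its genotypes overlapped and its log2 difference was -0.016, which turned to 0.18 without wild-type replicate 1 and to 0.12 without heterozygote replicate 1. The ratio of H3f3a to H3f3b ranged from 0.942 to 1.33, and heterozygote replicate 2 was the library in which H3f3b was the higher.

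MacroH2A carries a large extra domain and marks the XY body of pachytene spermatocytes, where the sex chromosomes are silenced, and H2AX is phosphorylated there and at double-strand breaks. H2afy, the gene of macroH2A1, was at 73.4 and 71.6 FPKM in wild type and at 80.4 and 93.2 FPKM in the heterozygote. H2afx was at 54.8 and 44.8 FPKM in wild type and at 59.3 and 60.3 FPKM in the heterozygote. Both genes were higher in both heterozygote libraries, by 1.198 and 1.201 times in the means. By limma-trend the log2 differences were 0.25 (SE 0.099, adjusted p 0.381) for H2afy and 0.27 (SE 0.12, adjusted p 0.456) for H2afx. Neither passed. For H2afy the difference was 0.15 without heterozygote replicate 2, and for H2afx it was 0.12 without wild-type replicate 2 and 0.41 without wild-type replicate 1. H2afy2, the gene of macroH2A2, was at 12.9, 14.9, 14.5 and 13.7 FPKM, with overlapping genotypes. Opposite-strand genes overlap H2afy2 (Aifm2, Gm2137) and H2afv (Ogdh), and the protocol states no step that keeps the strand.

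H2afj, an H2A gene, and H1f0, the linker histone of differentiated cells, were the lowest genes of the group called outside the clusters. That group follows the symbol and not the position. H2afj (chr6:136808248-136810074) lies near Hist4h4 (chr6:136803993-136804431), which is counted as clustered. H2afj was at 5.11 and 5.58 FPKM in wild type and at 7.43 and 6.70 FPKM in the heterozygote, with no overlap. It was 1.32 times higher in the means, with a log2 difference of 0.35 and an adjusted p of 0.519 by limma-trend. H1f0 was at 6.21, 4.90, 5.27 and 4.52 FPKM, and its genotypes overlapped.

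**Figure D2:**
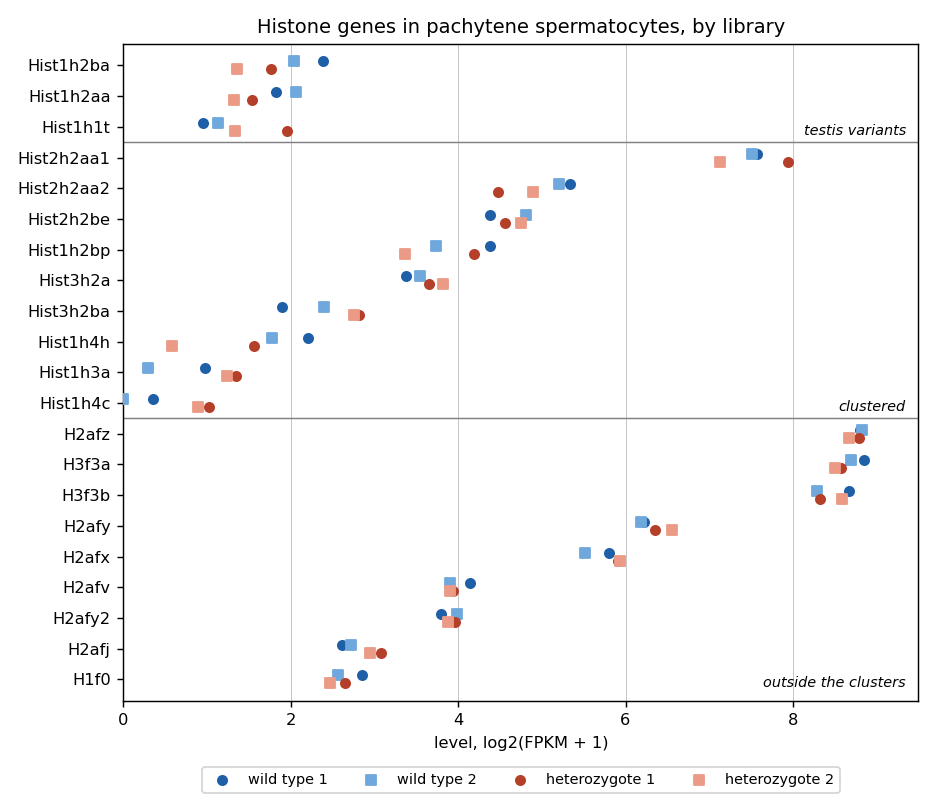
Level of 21 named histone genes in each of the 4 libraries, on the scale log2(FPKM + 1), with wild type in blue, heterozygote in red, and circles and squares for replicates 1 and 2. H2afz, H3f3a and H3f3b lie near the top of the scale, while the testis variants lie between 0.94 and 4.23 FPKM.

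The testis variants were low in these libraries, and each separated the genotypes without passing the test. The genotypes also did not overlap for 42.6% of all tested genes. H1t, TH2B and TH2A are known as abundant proteins of pachytene spermatocytes and later cells. Hist1h1t (chr13:23695811-23696545, + strand, GRCm38) encodes H1t. It was at 0.94 and 1.19 FPKM in wild type (1.07 ± 0.177, SD, n = 2) and at 2.88 and 1.52 FPKM in the heterozygote (2.2 ± 0.962, SD, n = 2). Both heterozygote libraries were higher, by 2.07 times in the means, but they lay farther from each other than the second did from wild type. The log2 difference was 0.60 (SE 0.27), with an adjusted p of 0.460 by limma-trend. It was 0.29 without heterozygote replicate 1, 0.91 without heterozygote replicate 2, and 0.92 with a pseudocount of 0.1. No 50-base window of Hist1h1t occurs in another gene's transcripts. The summed spermatid markers given above were likewise higher in both heterozygote libraries, but the list was mixed. Of the 10, 5 were higher in both (Prm1, Prm2, Tnp1, Tnp2 and Tssk6), beside 23.6% of all tested genes. The others overlapped: log2 differences were 0.16 for Odf1, 0.18 for Akap4, -0.31 for Tex101, -0.41 for Acrv1 and -0.44 for Spaca1. The part of spermatid RNA in the value of Hist1h1t was not tested.

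Hist1h2ba (chr13:23933725-23934156, - strand) encodes TH2B and Hist1h2aa (chr13:23934462-23934913, + strand) encodes TH2A. They are neighbours read in opposite directions, with 305 bases between their starts in the files' annotation. Hist1h2ba was at 4.23 and 3.10 FPKM in wild type (3.67 ± 0.799, SD, n = 2) and at 2.40 and 1.56 FPKM in the heterozygote (1.98 ± 0.594, SD, n = 2). Hist1h2aa was at 2.54 and 3.19 FPKM in wild type (2.87 ± 0.460, SD, n = 2) and at 1.91 and 1.5 FPKM in the heterozygote (1.71 ± 0.290, SD, n = 2). Both were lower in both heterozygote libraries, by 1.85 times for Hist1h2ba and 1.68 times for Hist1h2aa in the means. The log2 differences were -0.65 (SE 0.25, adjusted p 0.380) and -0.51 (SE 0.21, adjusted p 0.411) by limma-trend. Of the 10 pachytene markers, 4 were also lower in both heterozygote libraries and 0 higher, beside 19% and 23.6% of all tested genes. The median log2 difference of the 10 was -0.024. The part of the cells' makeup in the values of Hist1h2ba and Hist1h2aa was not tested. Of their 50-base windows, 38.2% for Hist1h2ba and 23.8% for Hist1h2aa also occur in other genes' transcripts.

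The promoters of the testis variants are shown because the facing pair was lower in the heterozygote libraries and Hist1h1t higher. The sequences are from RefSeq on GRCm38.p6, from 250 bases before to 50 after the start, 5′ to 3′ on the strand of the gene. The windows of Hist1h2ba and Hist1h2aa share 220 bases, so 1 of them is given. In the Hist1h2aa window (chr13:23934187-23934486, + strand) capitals mark the TATA box (TATAAA), the CCAAT box and the octamer (ATTTGCAT) on either strand. In the Hist1h1t window (chr13:23695561-23695860, + strand) they mark the CCAAT box and the GC box (GGGCGG) on either strand. No marked motif overlaps another.
Hist1h2aa: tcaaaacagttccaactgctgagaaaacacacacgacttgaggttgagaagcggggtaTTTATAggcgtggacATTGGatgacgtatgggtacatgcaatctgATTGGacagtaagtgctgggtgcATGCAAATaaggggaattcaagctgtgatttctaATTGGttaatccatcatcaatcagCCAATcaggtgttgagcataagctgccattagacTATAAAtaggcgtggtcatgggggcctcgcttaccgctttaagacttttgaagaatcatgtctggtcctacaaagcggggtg
Hist1h1t: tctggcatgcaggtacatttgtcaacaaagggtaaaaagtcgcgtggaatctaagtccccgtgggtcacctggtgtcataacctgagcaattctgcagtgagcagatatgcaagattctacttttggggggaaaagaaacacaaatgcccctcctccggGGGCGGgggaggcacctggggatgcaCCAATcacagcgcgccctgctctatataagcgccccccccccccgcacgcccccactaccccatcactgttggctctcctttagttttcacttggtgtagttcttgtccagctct

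The Hist1h2aa window held TATAAA 2 times, CCAAT 4 times and the octamer once. The octamer is the binding motif of POU factors and a known element of H2B promoters. It was in 1.94% of the promoters of 26969 other genes, and in 6 of 45 clustered histone genes, 1 of 8 outside the clusters, and both Hist1h2aa and Hist1h2ba. CCAAT was in 41.0% of other promoters, in 38 of 45 clustered genes, in 6 of 8 outside them and in all 3 testis variants. TATAAA was in 15.6% of other promoters, in 21 of 45 clustered genes, in 1 of 8 outside and in the facing pair. Other forms of the TATA box were not searched, so the count does not show that Hist1h1t lacks one. Its window holds TATATAA, which is not marked. The GC box was in 38.2% of other promoters, in 19 of 45 clustered genes, in 6 of 8 outside and in Hist1h1t. CACGTG, 1 form of the E-box bound by bHLH factors, was in 8.11% of other promoters. It was in 0 of 45 clustered genes, 1 of 8 outside and 0 of 3 testis variants. Other forms of the E-box were not searched, so these counts do not show that a promoter lacks one. CACGCG was in 10.5% of other promoters, in 3 of 45, in 3 of 8 and in 1 of 3 in the same order. RefSeq promoters matched 56 of the 62 genes. A match is a description of letters in the window and not a site.

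**Figure D3:**
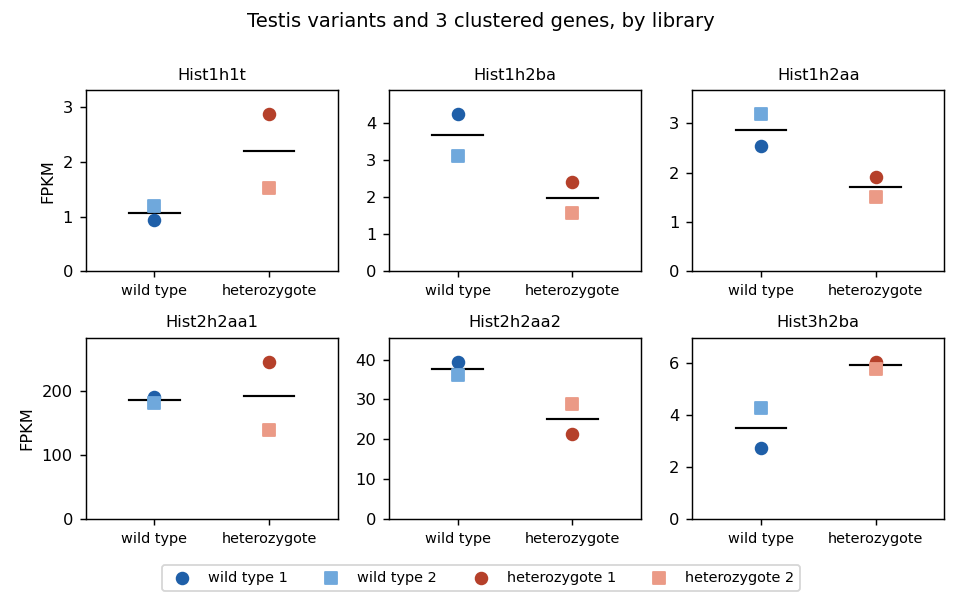
FPKM by library of the 3 testis variants and of Hist2h2aa1, Hist2h2aa2 and Hist3h2ba; points are libraries and the bar is the mean of the 2 libraries of a genotype. Hist1h1t and Hist3h2ba are higher in both heterozygote libraries, Hist1h2ba, Hist1h2aa and Hist2h2aa2 are lower in both, and for Hist2h2aa1 heterozygote replicates 1 and 2 lie on either side of wild type.

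Among the clustered genes, 1 locus dominated. Hist2h2aa1 (chr3:96245497-96246052, + strand) and Hist2h2aa2 (chr3:96239779-96240374, - strand) are near-identical H2A genes. Hist2h2aa1 was at 189.9 and 181.0 FPKM in wild type and at 245.1 and 139.2 FPKM in the heterozygote. The heterozygote libraries were the highest and the lowest, the log2 difference was -0.0046, and it ranged from -0.41 without heterozygote replicate 1 to 0.40 without heterozygote replicate 2. Hist2h2aa2 was at 39.5 and 36.0 FPKM in wild type and at 21.3 and 28.8 FPKM in the heterozygote. It was lower in both heterozygote libraries by 1.51 times, with a log2 difference of -0.59 (SE 0.17) and an adjusted p of 0.252 by limma-trend. The difference was -0.38 without heterozygote replicate 1.

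The copies cannot be separated firmly. All 50-base windows of Hist2h2aa2 occur in Hist2h2aa1, and 89.2% of those of Hist2h2aa1 occur in Hist2h2aa2, so each value is an estimate of how shared 50-base reads were divided. All windows of both genes also occur in transcripts of Gm20633, so the level of the pair may include reads of other transcripts. The ratio of Hist2h2aa1 to Hist2h2aa2 was 4.81, 5.02, 11.5 and 4.84, with heterozygote replicate 1 apart. Their sum was 229.3 and 217.0 FPKM in wild type, and in the heterozygote it was 266.4 and 168.0 FPKM, with overlap. Summed, the pair shows no separation of the genotypes, whereas Hist2h2aa2 on its own does.

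Another 3 clustered genes averaged 5 FPKM or more. Hist2h2be, an H2B gene with a poly(A) signal and no window shared with another gene, was at 19.9 and 27.0 FPKM in wild type and at 22.6 and 26.02 FPKM in the heterozygote. Hist1h2bp, also H2B, was at 19.9 and 12.3 FPKM in wild type and at 17.2 and 9.31 FPKM in the heterozygote. Both overlapped between genotypes, and for Hist1h2bp the libraries numbered 1 were both above those numbered 2. Hist3h2a, an H2A gene, was at 9.36 and 10.7 FPKM in wild type and at 11.5 and 13.1 FPKM in the heterozygote, without overlap. Its log2 difference was 0.27, with an adjusted p of 0.586 by limma-trend, and Trim17 overlaps it on the same strand.

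Below 5 FPKM, 4 clustered genes separated the genotypes by at least 0.5 on the log2 scale, and they are named by that rule. At any size of difference, 6 of 21 tested clustered genes did not overlap (28.6%), beside 42.6% of all tested genes. Hist3h2ba, an H2B gene near Hist3h2a, was at 2.73 and 4.28 FPKM in wild type and at 6.04 and 5.76 FPKM in the heterozygote, a mean 1.68 times higher. Hist1h4h, an H4 gene, was at 3.63 and 2.42 FPKM in wild type and at 1.96 and 0.50 FPKM in the heterozygote. Hist3h2ba was thus the gene with the tighter heterozygote pair. By limma-trend its log2 difference was 0.64 (SE 0.24, adjusted p 0.366), and that of Hist1h4h was -0.92 (SE 0.39, adjusted p 0.422). Hist3h2ba was at 0.39 without wild-type replicate 1. Hist1h4h was at -0.43 without heterozygote replicate 2, at -1.41 without heterozygote replicate 1, and at -1.46 with a pseudocount of 0.1. Hist1h3a, an H3 gene, was at 0.96 and 0.23 FPKM in wild type and at 1.54 and 1.36 FPKM in the heterozygote. Hist1h4c, an H4 gene, was at 0.28 and 0 FPKM in wild type and at 1.03 and 0.86 FPKM in the heterozygote. Both were higher in both heterozygote libraries, at levels near the low end of the tested range. The log2 differences were 0.66 for Hist1h3a (adjusted p 0.416) and 0.78 (SE 0.20) for Hist1h4c (adjusted p 0.222), the smallest adjusted p of any member by limma-trend. Hist1h4c averaged 0.14 FPKM in wild type and 0.945 FPKM in the heterozygote. Its mean of 0.54 FPKM passed the filter of 0.5 FPKM only through the heterozygote libraries. Its place among the tested genes thus depended on the difference itself, and its p is no support for that difference. With a pseudocount of 0.1 the differences were 1.39 for Hist1h3a and 2.42 for Hist1h4c, so their size depends on the pseudocount. That of Hist1h3a was 0.32 without wild-type replicate 2 and 0.99 without wild-type replicate 1. Hist1h4c and Hist1h1t face each other end to end, with 1538 bases between them.

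The remaining clustered genes had means below 5 FPKM, the highest being Hist2h2ac at 4.72 FPKM, with values from 3.05 to 5.73 FPKM over the libraries. Of the 43 with a value, 22 had a mean below 0.5 FPKM, and among all 55 histone genes with a value 33 were above 0 in every library. The number of members above 0 was 44 and 39 in wild type and 46 and 38 in the heterozygote, higher in the libraries numbered 1 in both genotypes. Hist2h3c1 and Hist2h3c2 alternated: Hist2h3c1 was at 0, 3.14, 0 and 1.38 FPKM, and Hist2h3c2 at 2.43, 0, 2.28 and 0 FPKM. Their sum was at 2.43, 3.14, 2.28 and 1.38 FPKM. The files' annotation overlaps the pair on the same strand, but RefSeq sets them apart on the same build (chr3:96246685-96247348 and chr3:96238479-96239127), and file and RefSeq positions were also disjoint for Hist1h2ap, Hist1h2bq and Hist1h4n. Over the clustered genes, 27 of 50 shared more than 50% of their 50-base windows with other genes, against 1 of 9 outside the clusters. Summed by type, clustered H4 genes came to 13.9 and 11.3 FPKM in wild type and to 10.3 and 8.09 FPKM in the heterozygote, without overlap. Clustered H2A, H2B, H3 and H1 sums overlapped between genotypes.

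Across the family, no histone gene passed the test with genotype as the only term. At an adjusted p of 0.05 by limma-trend, 0 of 33 tested members were called, against 0 of 13333 tested genes (0%). At an unadjusted p under 0.05, 4 members remained, 2 higher (Hist1h4c and Hist3h2ba) and 2 lower (Hist2h2aa2 and H3f3a), against 13.2% of all tested genes. The genotypes did not overlap for 14 of 33 members (42.4%), against 42.6% of all tested genes, a share near the background. Of these, 8 were higher in the heterozygote (all genes 23.6%) and 6 were lower (all genes 19%). Hist1h4c, counted here and at the unadjusted p, was tested only because its heterozygote libraries were high. The 14 were made up of 5 of 9 outside the clusters, 6 of 21 clustered genes and the 3 testis variants.

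The median log2 difference was -0.090 over the 21 clustered genes tested, -0.016 over the 9 outside the clusters and -0.079 over all 33, beside -0.015 over all tested genes. The clustered median turned to 0.043 without wild-type replicate 1 and to 0.16 without heterozygote replicate 2. The median outside the clusters was 0.0095 without wild-type replicate 1. Members whose genotypes do not overlap numbered 24 without wild-type replicate 1 and 25 without wild-type replicate 2, beside 67.1% and 76.0% of all tested genes. They numbered 21 when heterozygote replicate 1 was left out and 19 when heterozygote replicate 2 was, beside 75.7% and 65.6% of all tested genes. The replicate number also sorted members: 9 of 33 had both libraries numbered 1 above both numbered 2 (27.3%, against 32.7% of all tested genes), among them Hist2h2aa1, Hist1h2bp, H2afv and H1f0, and 3 the reverse (9.09%, against 8.62%). The summed spermatogonial, Sertoli and Leydig markers were ordered the same way, and their part in this was not tested.

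**Figure D4:**
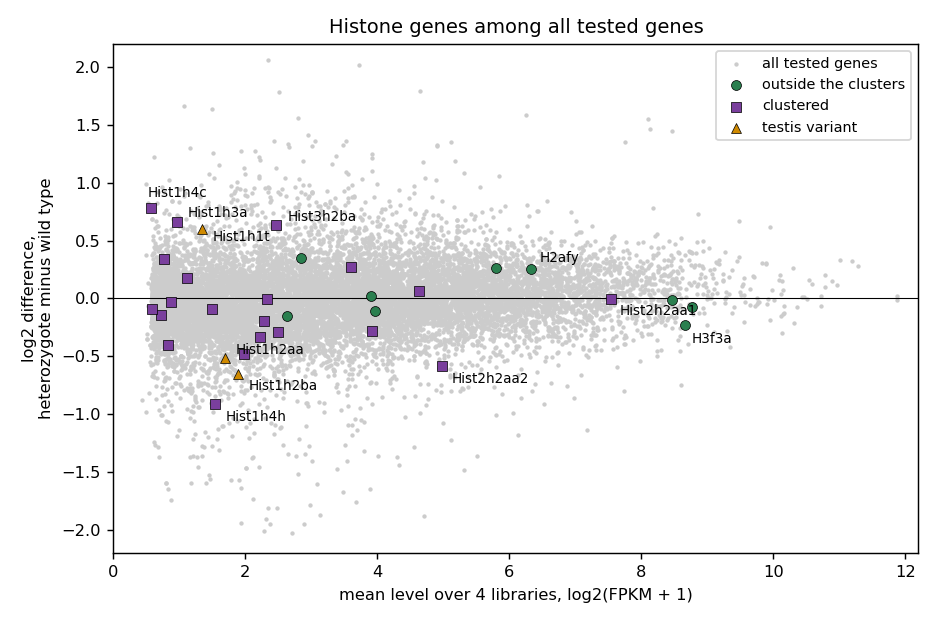
Difference between genotypes, heterozygote minus wild type, on the scale log2(FPKM + 1) against the mean level of each tested gene, with all 13333 tested genes in grey and the 33 tested histone genes by group; 6 genes lie outside the plotted range. The histone genes lie within the cloud of all genes, with Hist1h4c (0.78) and Hist1h4h (-0.92) at its low end.

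Genes that make, carry or use histones were counted from lists of textbook members. Of 18 tested genes of histone mRNA 3′ processing, 0 were called, 4 were higher and 3 lower without overlap (all tested genes 23.6% and 19%), and the median log2 difference was -0.05. Slbp, the protein that binds the stem-loop, was at 93.8, 91.0, 86.1 and 96.8 FPKM, with overlap. The most abundant gene of the list, Ncbp1 of the nuclear cap-binding complex, was at 160.8 and 179.8 FPKM in wild type and at 193.5 and 204.0 FPKM in the heterozygote, higher in both (adjusted p 0.371 by limma-trend). At an unadjusted p under 0.05 there were 3 of 18, beside 13.2% of all tested genes.

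Of 27 histone chaperone genes, 0 were called, 7 were higher and 5 lower without overlap, beside the same 23.6% and 19%, and the median log2 difference was -0.015. At an unadjusted p under 0.05 there were 5 of 27. Nasp, a chaperone of H3, H4 and linker histones with a testis form, was at 551.4 and 663.8 FPKM in wild type and at 484.8 and 505.5 FPKM in the heterozygote. It was lower in both heterozygote libraries (adjusted p 0.355 by limma-trend). Of 31 S-phase genes tested, 0 were called, 13 were higher and 4 lower without overlap, again beside 23.6% and 19%, and the median log2 difference was 0.13. At an unadjusted p under 0.05 there were 12 of 31, beside the 13.2% of all tested genes given above. Chaf1a, the large subunit of the assembly factor that deposits H3 and H4 on new DNA, was at 71.2 and 75.1 FPKM in wild type and at 109.3 and 101.2 FPKM in the heterozygote. Rfc2, a clamp loader subunit, was at 108.3 and 106.0 FPKM in wild type and at 132.9 and 136.5 FPKM in the heterozygote. Pcna, the sliding clamp, was at 166.3, 159.0, 188.9 and 191.9 FPKM. All 3 were higher in both heterozygote libraries, with adjusted p of 0.149, 0.182 and 0.270 by limma-trend. A list of 8 proliferation markers, which shares genes with the S-phase list, had 2 higher and 2 lower without overlap. Its median log2 difference was -0.063. Among the lower was Top2a, at 61.36 and 58.92 FPKM in wild type and at 45.78 and 47.15 FPKM in the heterozygote. The clustered histone genes, which are transcribed in S phase, had 4 of 21 higher and 2 lower without overlap, or 28.6% in either direction, beside 42.6% of all tested genes.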

How the data were processed

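RNA was measured in 2 wild-type and 2 heterozygote libraries. Trizol-extracted RNA was selected on oligo(dT) beads and read as single-end reads of 50 bases on a BGISEQ-500, per the labels' protocols. The authors deposited FPKM per gene. RSEM 1.2.12, HISAT2 2.0.4 and Bowtie2 2.2.5 are named, with GRCm38, in the submitters' processing notes. RSEM estimates how reads shared by several transcripts divide among them. Genes were joined by identifier, and 1593 genes listed as NA in all 4 tables had no value.

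Values were tested as log2(FPKM + 1) with limma 3.58.1 in R 4.3.3 (trended variance, genotype as the only term, two-sided, Benjamini-Hochberg over the 13333 genes whose mean reached 0.5 FPKM). A trial on simulated data drew independent noise for each library, without the correlation between same-numbered libraries given below. It cannot show how the test does where such correlation is present. Fold changes of low genes are understated on this scale. The members and lists were chosen with earlier results of these data known. Named were the testis variants, the genes outside the clusters, clustered genes averaging 5 FPKM or more, and those averaging 0.5 FPKM or more whose genotypes did not overlap and differed by at least 0.5 on the log2 scale; other clustered genes named here were chosen after their values were seen. For lists, up to 4 genes of highest mean were eligible. Slbp of the 3′ processing list and Chaf1a and Chaf1b of the chaperone list are also on the S-phase list. They are counted in both, and Chaf1a and Chaf1b were higher without overlap. Windows of 50 bases were compared over both strands of GENCODE M21 transcripts. The alternatives were other pseudocounts, filters and scalings, a replicate block, leaving out each library, and, chosen after seeing the data, summed copies.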

Additional observations from a re-analysis of the deposited data

How the results depend on the processing

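Of 21 named histone genes, 15 kept 1 direction under every alternative that gave them a value; Hist1h4c had none under the filter of 1 FPKM in 2 libraries or without either heterozygote library, and Hist2h2aa2 none with copies summed. Genes called over the whole table numbered 0 as reported, 55 with median-ratio scaling and 135 with quantile normalization, and none of these was a histone gene. H2afy2 turned to -0.025 with equal-sum scaling. With each library left out in turn, 0 genes and 0 histone genes were called. Members without overlap then ranged from 19 to 25, those higher from 8 to 13 and those lower from 8 to 15, and the medians from -0.11 to 0.16 (clustered) and -0.064 to 0.0095 (outside the clusters). The log2 difference ranged from -0.21 to 0.18 for H3f3b, -0.41 to 0.40 for Hist2h2aa1, -0.070 to 0.12 for H2afy2, -0.22 to 0.0095 for H2afv, -0.15 to 0.27 for Hist2h2be and -0.69 to 0.13 for Hist1h2bp. The cause was not tested. With overlapping or near-identical copies summed, 14 members of 30 were without overlap, 8 higher and 6 lower, beside 42.6% of all genes tested then. These were not the same 14. The sum of Hist2h2aa1 and Hist2h2aa2 overlapped, whereas that of Hist2h3c1 and Hist2h3c2 was lower in both heterozygote libraries. The median of all tested genes was -0.056 with equal-sum scaling, beside -0.015 as reported.

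The genotypes share replicate numbers, but the labels do not say that a number marks a shared animal or batch. Differences between replicates 1 and 2 correlated between the genotypes at 0.529 over 13333 genes and at 0.477 over 33 members. With the number as a replicate block, 1213 genes (9.10%) and 5 histone genes were called by limma-trend: Hist1h2ba (-0.65, adjusted p 0.044), Hist1h3a (0.66, adjusted p 0.0358), Hist1h4c (0.78, adjusted p 0.00584), Hist1h4h (-0.92, adjusted p 0.00878) and Hist2h2aa2 (-0.59, adjusted p 0.0133). Of these 5, Hist1h4c was tested only because its heterozygote libraries were high. Many clustered genes lie near the lowest values and share reads with copies, and 2 libraries a genotype limit the precision of every value.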
